A study of Homo sapiens with 6 samples.

Results

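The genes described are 10 members of the YAP/TAZ pathway, chosen by name: the factors YAP1, WWTR1 and TEAD1, and 7 mechanosensitive target genes, CCN1, CCN2, ANKRD1, AMOTL2, LATS2, AXL and CRIM1. All 10 were found among the 35639 genes of the table. They were followed in hFOB, an osteoblast-like line from human fetal bone that a heat-labile viral T antigen keeps dividing, by bulk RNA-seq of poly(A) RNA. Cells carried a lentiviral construct with dTomato, were sorted for dTomato and were kept at 34 °C, where the line proliferates, until 15 days after transduction. The EV group received the empty vector. The wild-type group (H3.3-WT, here WT) received an HA-tagged Drosophila H3.3 cDNA, and the mutant group (H3.3-G34W, here G34W) the same cDNA with glycine 34 changed to tryptophan. The transgene is a fly sequence driven from the vector, and its level is not read from the table of human genes.

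YAP and TAZ are co-activators that bind no DNA themselves and act mainly through TEAD proteins. The Hippo kinases phosphorylate both and hold them in the cytoplasm, whereas cell spreading, a stiff matrix and actin tension favour their entry into the nucleus. In cells of the osteoblast lineage they are known for linking mechanical cues to growth and matrix production, and several of their targets are feedback inhibitors of the pathway. Activity of YAP and TAZ is set largely by phosphorylation and location, which mRNA levels do not measure.

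Group names follow the library titles. The genotype field of the labels swaps the names of the mutant and wild-type libraries. Each direction given between those groups thus rests on the titles, and its sign would swap if the genotype field were correct. The values given for G34W and WT against EV, and the replicate 1 library described next, would then change places between the groups. EV replicate 1 was left out by the rule for the comparison, which leaves 5 libraries: EV replicate 2 and 2 each of WT and G34W. EV is thus a single library, assumed in the test to vary like the other groups. The values of these 5 libraries, estimated counts that the authors normalised, summed to between 38821143 and 48024590. They are not scaled by gene length, so levels are compared between libraries and not between genes. G34W replicate 1 stood apart in its marker genes.

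The osteoblast or mesenchymal list of 12 genes summed to 388643 normalised estimated counts in EV replicate 2, 353867 and 453357 in WT, and 311422 and 409729 in G34W. VIM, the mesenchymal intermediate filament gene, was its most abundant gene in each of the 5 libraries, at 109267 to 233828. IBSP, which marks later osteoblasts, was listed at 0 in 4 of them and under 10 in EV replicate 2. The osteoblast factor SP7 had at most 6.03. BGLAP, the osteocalcin gene of mature osteoblasts, had 5.55 in EV replicate 2, 44.9 and 39.3 in WT, and 4.08 and 27.4 in G34W. Of the 12 genes, 9 or 10 had a value of at least 10 in each of the 5 libraries. In G34W replicate 1, ALPL at 1216 (107 to 428 elsewhere), THY1 at 7023 (2537 to 2955 elsewhere) and SPP1 at 649 (171 to 544 elsewhere) were the highest of the 5 libraries. RUNX2 at 236 (387 to 573 elsewhere), COL1A1 at 24757 (26425 to 43115 elsewhere), VIM and BGLAP were at their lowest there, as was the sum of the list.

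The pluripotent stem cell list of 12 genes summed to 53362 in G34W replicate 1, to 559 in G34W replicate 2, to 469 and 599.9 in WT and to 602 in EV replicate 2. All 12 were more than 2-fold higher in G34W replicate 1 than in any of the other 4 libraries. POU5F1 was the most abundant there at 19441, and LIN28B elsewhere, at 135 to 253. DPPA2 and UTF1 were listed at 0 in EV replicate 2, WT replicate 2 and G34W replicate 2. Of the 6 epithelial genes, 4 were also more than 2-fold higher in G34W replicate 1, and their list summed to 51586 there, 36424 in replicate 2, 35842 and 46559.8 in WT and 46779 in EV replicate 2, with KRT18 the most abundant at 20425 to 29242. The neural list of 7 summed to 6130 there and 3788 to 7299 elsewhere, with TUBB3 the most abundant. DCX at 196 (at most 6.83 elsewhere), SYT4 at 144 (listed at 0 elsewhere) and STMN2 at 23.2 (at most 3.44 elsewhere) were more than 2-fold above every other library in G34W replicate 1. The other 4 neural genes were highest elsewhere, MAP2 in EV replicate 2 at 116 (77.2 in G34W replicate 1), ELAVL3 and ELAVL4 in WT replicate 1 at 24.4 and 10.3 (5.83 and 1.54 in G34W replicate 1), and TUBB3 in WT replicate 2. The osteoclast or myeloid list of 8 summed to between 1174 and 1528 in the 5 libraries with CD68 the most abundant, and OCSTAMP and TYROBP were listed at 0 in all of them. The endothelial list of 5, led by TEK in each library, summed to 876 in G34W replicate 2 and to 2089.9 to 2324 in the others, and KDR had 656 in G34W replicate 1 and 26.6 to 78.3 elsewhere. Results for the members are therefore given with and without G34W replicate 1, and the part of this marker signal in them was not tested.

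**Figure D1:**
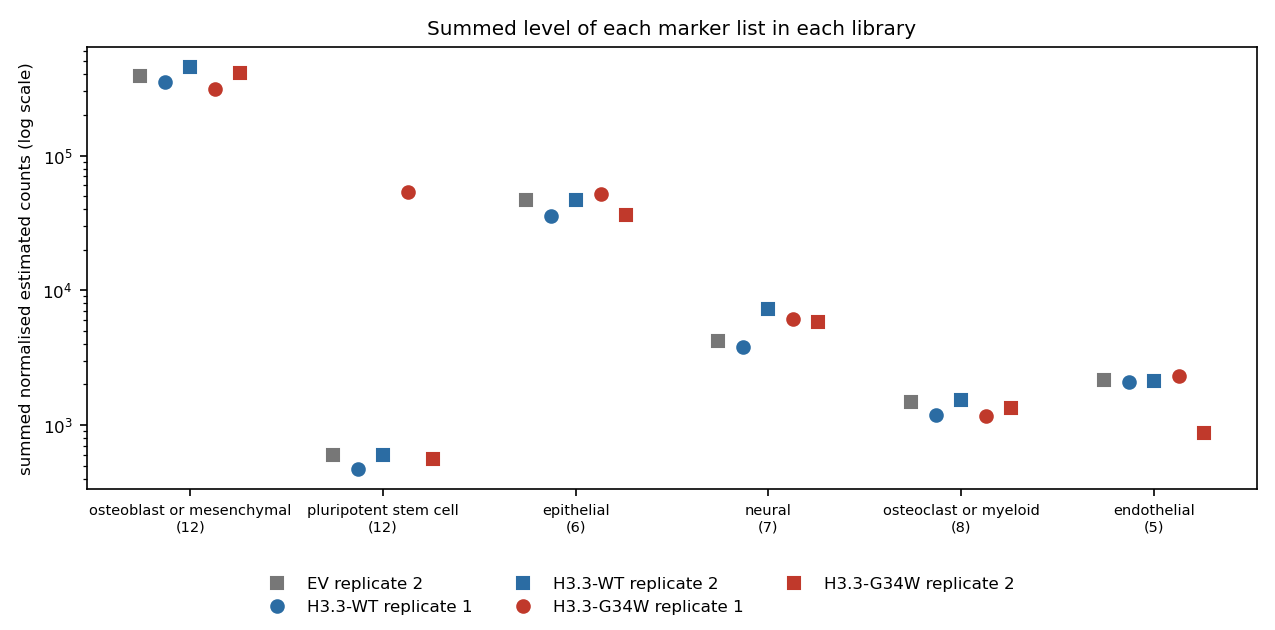
Summed normalised estimated counts (log scale) of 6 marker lists, with the number of genes in brackets, in each of the 5 libraries, a point for each. The pluripotent stem cell list stands at 53362 in G34W replicate 1 and at 469 to 602 in the others.

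For each of the 3 factors the G34W and WT libraries overlapped. YAP1 (ENSG00000137693; chromosome 11, 102110447 to 102233424 on GRCh38.p14), the co-activator itself, had 5347 normalised estimated counts in EV replicate 2, 4467 and 6514 in WT, and 4767 and 5963 in G34W. Both G34W values lay between the WT values. The log2 fold change of G34W against WT was -0.02 on the log2(value + 1) scale (standard error 0.27, 95% interval -0.63 to 0.60). WWTR1 (ENSG00000018408; chromosome 3, 149517235 to 149724788), which encodes TAZ, had 1541 in EV replicate 2, 1069 and 1506 in WT, and 876 and 1377 in G34W. The groups overlapped, since G34W replicate 2 lay between the WT libraries, and the log2 fold change was -0.21 (standard error 0.32). TEAD1 (ENSG00000187079; chromosome 11, 12674421 to 12944737), a DNA-binding partner of both, had 4517 in EV replicate 2, 3815 and 3099 in WT, and 2614 and 3975 in G34W. Here the G34W libraries stood on both sides of the WT libraries, and the difference of the means was -0.09 on the log2 scale (standard error 0.28). Without G34W replicate 1 the log2 fold changes of the factors turned positive, at 0.14 for YAP1, 0.12 for WWTR1 and 0.21 for TEAD1.

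**Figure D2:**
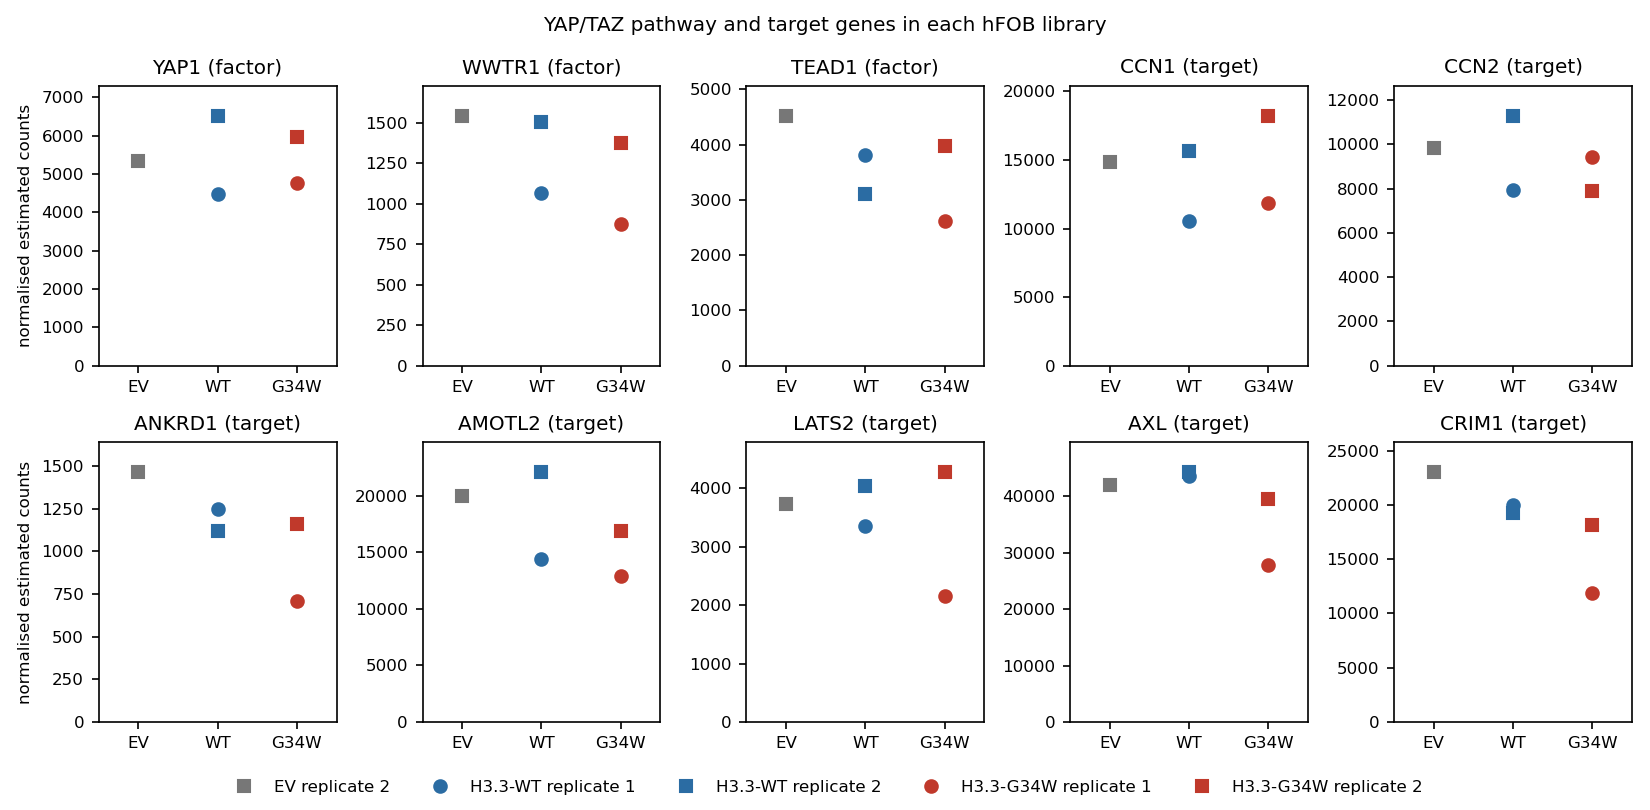
Normalised estimated counts (each vertical axis starts at 0) of the 10 genes in EV replicate 2, the WT libraries and the G34W libraries, with a circle for replicate 1 and a square for replicate 2. Only for AXL and CRIM1 do both G34W points lie below both WT points, as they do for 14.9% of all genes tested.

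Among the targets, CCN1, CCN2 and ANKRD1 are the genes most used as readouts of YAP/TAZ activity. TEAD proteins recognise the letters GGAATG, read as CATTCC on the other strand. To show where these letters lie in the targets described next, the 250 bases before each RefSeq transcription start (GRCh38.p14) were searched on both strands. Windows were matched for 7 of the 10 members, and TEAD1, CCN1 and CRIM1 were not used here. CCN2 held 3 matches, which begin 169, 104 and 95 bases before its start, and ANKRD1 held 2, at 220 and 128. Of all 35116 windows of this length, 11.9% held at least 1 match, 0.94% at least 2 and 0.0826% at least 3. YAP1 held 1 match, AMOTL2 and AXL each held 1 before the second of their listed starts, and the windows of WWTR1 and LATS2 held 0. A match describes these letters only. The windows of CCN2 (chr6:131951373-131951622, minus strand) and ANKRD1 (chr10:90921088-90921337, minus strand) are shown 5′ to 3′ because they held more than 1 match, with the matches in capitals.
CCN2: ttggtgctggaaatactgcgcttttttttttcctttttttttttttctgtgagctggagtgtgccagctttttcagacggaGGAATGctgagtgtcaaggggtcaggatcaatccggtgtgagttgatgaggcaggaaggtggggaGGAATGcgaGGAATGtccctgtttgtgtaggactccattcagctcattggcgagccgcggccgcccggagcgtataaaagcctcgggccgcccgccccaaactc
ANKRD1: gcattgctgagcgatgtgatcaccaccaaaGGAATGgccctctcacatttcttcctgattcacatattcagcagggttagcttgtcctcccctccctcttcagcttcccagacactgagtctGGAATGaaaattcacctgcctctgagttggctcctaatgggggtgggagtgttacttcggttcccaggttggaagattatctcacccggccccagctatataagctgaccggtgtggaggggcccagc

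CCN1 (ENSG00000142871; chromosome 1, 85580761 to 85583950), which encodes a secreted matricellular protein, had 14865 normalised estimated counts in EV replicate 2, 10536 and 15655 in WT, and 11861 and 18214 in G34W. It was highest in G34W replicate 2 and lowest in WT replicate 1, and its log2 fold change of 0.19 (standard error 0.31) was the positive one among the members. It was 0.50 (standard error 0.35) without G34W replicate 1, -0.11 without G34W replicate 2 and -0.09 without WT replicate 1. CCN2 (ENSG00000118523; chromosome 6, 131948176 to 131951372), its relative with the 3 matches shown, had 9849 in EV replicate 2, 7924 and 11280.2 in WT, and 9411 and 7892 in G34W. The range of the WT libraries covered all but the G34W replicate 2 value, which lay just under it, and the log2 fold change was -0.13 (standard error 0.27), or -0.26 (standard error 0.33) without G34W replicate 1. ANKRD1 (ENSG00000148677; chromosome 10, 90912096 to 90921087), which encodes an ankyrin repeat protein of muscle and stressed cells, had 1465 in EV replicate 2, 1248 and 1119 in WT, and 710.0 and 1163 in G34W. G34W replicate 1 was the low library and replicate 2 lay between the WT libraries. Its log2 fold change was -0.38 (standard error 0.32) with all 5 libraries and -0.02 (standard error 0.32) without G34W replicate 1.

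AMOTL2 and LATS2 are targets that act back on the pathway, AMOTL2 by binding YAP at junctions and actin, LATS2 as the kinase that phosphorylates YAP and TAZ. AMOTL2 (ENSG00000114019; chromosome 3, 134355345 to 134375417) had 19928 normalised estimated counts in EV replicate 2, 14429 and 22064 in WT, and 12881 and 16827 in G34W. The WT libraries themselves differed more than the group means did, and the log2 fold change was -0.28 (standard error 0.30), or -0.08 (standard error 0.36) without G34W replicate 1. LATS2 (ENSG00000150457; chromosome 13, 20973036 to 21061586) had 3727 in EV replicate 2, 3361 and 4039.9 in WT, and 2159.8 and 4277 in G34W. The highest and the lowest of the 5 libraries were thus both G34W. The log2 fold change of LATS2 was -0.28 (standard error 0.33), and 0.21 (standard error 0.29) without G34W replicate 1.

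AXL and CRIM1, which code for membrane proteins, were the members whose G34W and WT libraries did not overlap. Both G34W libraries lay below both WT libraries for these 2 of the 10 members, against 14.9% of all genes tested. AXL (ENSG00000167601; chromosome 19, 41219223 to 41261766), a receptor tyrosine kinase for GAS6, had 42051 normalised estimated counts in EV replicate 2, 43644 and 44306 in WT, and 27841 and 39632 in G34W. The WT libraries were close together (43975 ± 468, SD, n = 2) and the G34W libraries were spread (33737 ± 8337, SD, n = 2). The log2 fold change was -0.40 (standard error 0.29, 95% interval -1.07 to 0.26). CRIM1 (ENSG00000150938; chromosome 2, 36355778 to 36551135), whose cysteine-rich repeats bind bone morphogenetic proteins, had 23027 in EV replicate 2, 19999 and 19239 in WT, and 11901 and 18167 in G34W. As for AXL, the WT pair was tight (19619 ± 538, SD, n = 2), the G34W pair was not (15034 ± 4431, SD, n = 2), and replicate 1 was much the lower of that pair. The log2 fold change was -0.42 (standard error 0.28, 95% interval -1.05 to 0.22). Without G34W replicate 1, the log2 fold changes were -0.15 for AXL (standard error 0.36) and -0.11 for CRIM1 (standard error 0.31). That G34W replicate 2 lies below both WT libraries for these genes follows from how they were picked out.

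The comparison of G34W with WT asks what the substitution adds to expression of the histone. All 10 members were among the 16436 genes tested, those with a value of at least 10 in at least 2 of the 5 libraries, and 0 of the 10 had an adjusted p under 0.05 in limma (adjusted p = 0.9997 for each). Over all genes 0 (0%) passed, with 466 at an unadjusted p under 0.05 (2.84%), of which 0 were members. The 95% intervals of the members reach from -1.09 (ANKRD1) to 0.89 (CCN1), so a p that misses the threshold does not show that the groups were alike. With 2 libraries in each group, the smallest two-sided p of an exact permutation test is 0.333. Both G34W libraries lay below both WT libraries for 2 of the 10 members, against 14.9% of all genes tested, and above both for 0, against 11.5%, so the members' count is near that of genes at large. Without G34W replicate 1, again 0 genes passed in limma, with 252 at an unadjusted p under 0.05. The count was set by single libraries: it was 117 without G34W replicate 2, when the group is replicate 1 alone, 11 without WT replicate 1, and 1 without WT replicate 2 (AP002748.5, named after its value was seen), and 0 of these calls were members. In these fits 1511, 682 and 352 genes had an unadjusted p under 0.05, with the members CRIM1 and LATS2 among the 1511. In a fit without 1 G34W or WT library, that group is a single library and the other pair gives the spread. The methods define replicates in general as wells of an experiment and do not tie these duplicates to separate infections, so p-values measure the spread between these libraries and not between infections.

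**Figure D3:**
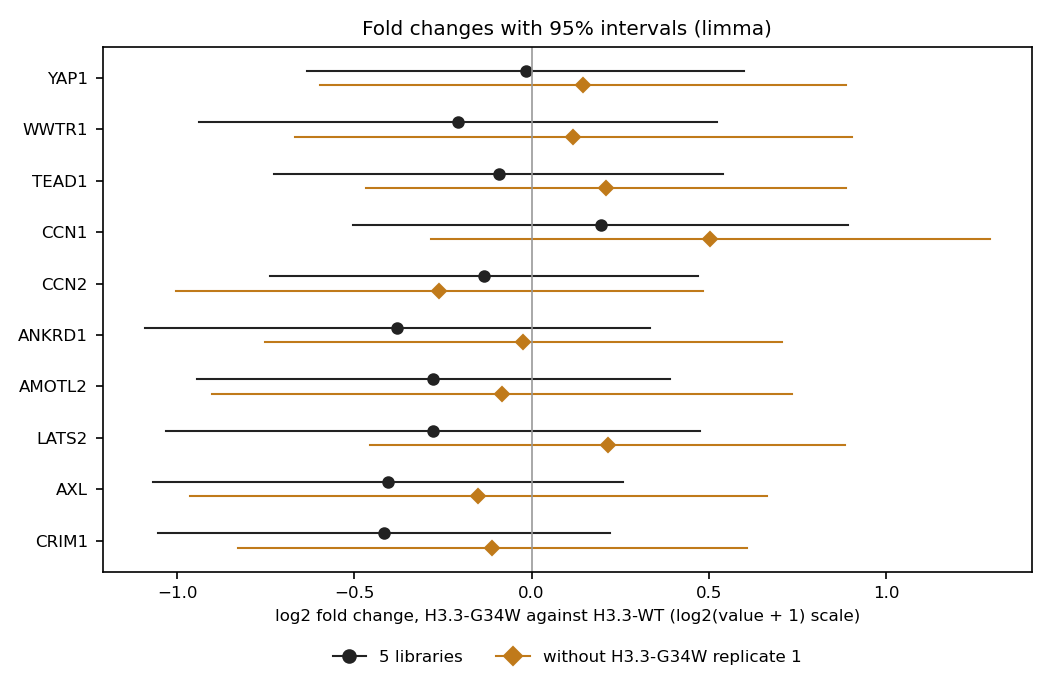
Log2 fold change of each member between G34W and WT from limma (horizontal axis), as points with 95% intervals as lines, with 5 libraries (circles) and without G34W replicate 1 (diamonds). All intervals cover 0, and for YAP1, WWTR1, TEAD1 and LATS2 the point changes sign without that library.

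In sign, 9 of the 10 members had a negative log2 fold change between G34W and WT, 8 after each library was rescaled to a median log2 ratio of 0, when YAP1 turned to 0.04, 5 without G34W replicate 1 and 5 without WT replicate 2. Over all genes tested 57.4% were negative. The median was -0.24 for the members and -0.06 over all genes, and without G34W replicate 1 both medians were 0.05. Without G34W replicate 2 all 10 members were negative, with a median of -0.50 beside -0.17 over all genes. Without WT replicate 1 the number negative was 9, with a median of -0.39 beside -0.12 over all genes. G34W replicate 1 was the lowest of the 5 libraries for 7 of the 10 members, against 40.4% of all genes tested, a count chosen after the values were seen.

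Because that library was low for genes at large, member values were also set against its own median. The median log2 ratio to the mean of the WT libraries over all genes tested was -0.17 in G34W replicate 1, 0.04 in G34W replicate 2 and -0.02 in EV replicate 2. Relative to that median, in G34W replicate 1 LATS2 was at -0.60, ANKRD1 at -0.56, CRIM1 at -0.55 and AXL at -0.49. WWTR1 was at -0.36, AMOTL2 at -0.30 and TEAD1 at -0.22, whereas YAP1 at -0.01, CCN1 at 0.06 and CCN2 at 0.17 were near or above it. In G34W replicate 2 they ranged from -0.30 for CCN2 to 0.46 for CCN1, with AXL at -0.19 and CRIM1 at -0.15. In these bulk libraries, fewer cells that express a gene and less of its RNA per cell cannot be told apart.

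Against the empty vector, G34W tests the mutant construct and WT the wild-type one. These comparisons share EV replicate 2 as their only control. Between G34W and EV, 0 of the 10 members and 0 of all genes (0%) passed in limma, with 324 genes at an unadjusted p under 0.05 (1.97%) and 0 of them members. CRIM1 was among 348 such genes after rescaling to a median log2 ratio of 0. Without G34W replicate 2, G34W and EV are 1 library each, and the WT pair alone gives the spread. All 10 members were then negative, with a median of -0.71, beside -0.15 over all genes. With all 5 libraries the 10 were negative too, with a median of -0.39 beside -0.04 over all genes. Without G34W replicate 1 the number negative was 7, with a median of -0.17 beside 0.06 over all genes. Both G34W libraries lay below EV replicate 2 for 7 of the 10 members, against 30.8% of all genes tested, and above it for 0, against 27.9%. The 7 were WWTR1, TEAD1, CCN2, ANKRD1, AMOTL2, AXL and CRIM1. Between WT and EV, again 0 of the 10 members and 0 of all genes (0%) passed in limma, with 175 at an unadjusted p under 0.05 (1.06%) and 0 members among them. Both WT libraries lay below EV replicate 2 for 4 members, WWTR1, TEAD1, ANKRD1 and CRIM1, against 26.4% of all genes, and above it for AXL alone, against 29.7%. With 1 control library, all these counts carry the deviation of that library.

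The log2 fold changes against EV are given side by side. For the factors they were -0.004 in G34W and 0.01 in WT for YAP1, -0.49 and -0.28 for WWTR1, and -0.49 and -0.39 for TEAD1. For the readout targets they were -0.02 and -0.21 for CCN1, -0.19 and -0.06 for CCN2, and -0.69 and -0.31 for ANKRD1. For the feedback targets they were -0.44 and -0.16 for AMOTL2, and -0.29 and -0.02 for LATS2. The membrane targets had -0.34 and 0.06 for AXL, and -0.65 and -0.23 for CRIM1. Standard errors of these values ran from 0.33 to 0.41, and the difference within a pair is the G34W against WT value given above, with its own standard error. Without G34W replicate 1, YAP1, CCN1 and LATS2 turned positive against EV, at 0.16, 0.29 and 0.20. The other 7 were then -0.16 for WWTR1, -0.18 for TEAD1, -0.32 for CCN2, -0.33 for ANKRD1, -0.24 for AMOTL2, -0.09 for AXL and -0.34 for CRIM1. In WT against EV, leaving out WT replicate 1 turned CCN1, CCN2, AMOTL2 and LATS2 positive, at 0.07, 0.20, 0.15 and 0.12. Leaving out WT replicate 2 turned YAP1 to -0.26.

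The 7 target members belong to a wider list of 22 YAP/TAZ target genes, of which 21 were tested. FOXF2, with at most 9.10, was the gene not tested. Of the 21, 0 passed in either direction in limma, with 0 at an unadjusted p under 0.05. Between G34W and WT 18 had a negative log2 fold change, against 57.4% of all genes tested, and the median was -0.25. The 14 tested targets that are not members gave 12 negative values and a median of -0.24, beside -0.06 over all genes. Without G34W replicate 1 the median of the 21 turned to 0.05. RBMS3, which codes for an RNA-binding protein, had 926 normalised estimated counts in EV replicate 2, 957 and 791 in WT, and 488 and 716 in G34W (log2 fold change -0.56, standard error 0.32). DOCK5, which codes for an activator of RAC, had 2046 in EV replicate 2, 2498 and 2285 in WT, and 1567 and 1972 in G34W (log2 fold change -0.44, standard error 0.26). Leaving out G34W replicate 1 gave -0.28 for both RBMS3 and DOCK5. With AXL and CRIM1, these were the 4 of the 21 whose G34W libraries both lay below both WT libraries, a count near the 14.9% of all genes tested.

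Of the Hippo kinases and upstream regulators, all 25 were tested, including the members LATS2 and AMOTL2. Again 0 passed in either direction in limma, with 1 at an unadjusted p under 0.05. A negative log2 fold change was seen for 20, against 57.4% of all genes tested. The median was -0.20, beside -0.06 over all genes. DCHS1, a protocadherin that pairs with FAT4, had 2298 normalised estimated counts in EV replicate 2, 2568 and 2185 in WT, and 1109.8 and 1926 in G34W (log2 fold change -0.70, standard error 0.31). FAT1, a related giant cadherin, had 11283 in EV replicate 2, 12655 and 12839.8 in WT, and 7366 and 9456 in G34W (log2 fold change -0.61, standard error 0.25). FAT1 was the gene of the list with an unadjusted p under 0.05, against 2.84% of all genes (adjusted p = 0.9997 in limma). MAP4K4, a kinase that can act on LATS in parallel to the MST kinases, had 15133 in EV replicate 2, 13173 and 19467 in WT, and 10707 and 12601 in G34W (log2 fold change -0.46, standard error 0.28). Leaving out G34W replicate 1 gave -0.30 for DCHS1, -0.43 for FAT1 and -0.35 for MAP4K4, and MAP4K4 was -0.74 without WT replicate 1 and -0.18 without WT replicate 2. The groups did not overlap for DCHS1, FAT1 and MAP4K4. Over the list, both G34W libraries lay below both WT libraries for 5 of 25 genes and above both for 1, against 14.9% and 11.5% of all genes tested. The list's median was 0.03 without G34W replicate 1.

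Among the YAP/TAZ, TEAD and VGLL factors, 9 of 10 were tested, 3 of them members. In limma 0 passed or had an unadjusted p under 0.05. Of the 9, 8 had a negative log2 fold change, against 57.4% of all genes tested. The median of the 9 was -0.21, beside -0.06 over all genes. TEAD2 was the positive one, with 1911 normalised estimated counts in EV replicate 2, 2161 and 1905 in WT, and 3278 and 2329 in G34W (log2 fold change 0.45, standard error 0.27). Its G34W libraries both lay above both WT libraries, as for 11.5% of all genes tested. VGLL3, a TEAD cofactor, had 2331 in EV replicate 2, 2772 and 3200.4 in WT, and 1551 and 2643 in G34W (log2 fold change -0.56, standard error 0.30). Here both G34W libraries lay below both WT libraries, as for 14.9% of all genes tested. VGLL2, a cofactor known from muscle, was low, with 53.1 in EV replicate 2, 89.3 and 57.8 in WT, and 20.1 and 85.3 in G34W (log2 fold change -0.77, standard error 0.79). Leaving out G34W replicate 1 gave 0.20 for TEAD2, -0.17 for VGLL3 and 0.24 for VGLL2, and a median of 0.12 for the list. VGLL1 was not tested, with 28.0 in G34W replicate 1, 2.42 in EV replicate 2 and 0 listed in the other 3 libraries.

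AP-1 factors often share enhancers with TEAD. Of 10 listed, 9 were tested and BATF was not, and 0 passed in limma or had an unadjusted p under 0.05. A negative log2 fold change was seen for 8 of the 9, against 57.4% of all genes tested. The median was -0.14, beside -0.06 over all genes. FOSB had 91.3 normalised estimated counts in EV replicate 2, 49.97 and 139 in WT, and 37.6 and 103 in G34W (log2 fold change -0.41, standard error 0.73). BATF3 had 453 in EV replicate 2, 296 and 339 in WT, and 235 and 263 in G34W (log2 fold change -0.35, standard error 0.36). ATF3 had 2244 in EV replicate 2, 2616 and 1981 in WT, and 1550.3 and 2090.1 in G34W (log2 fold change -0.34, standard error 0.28). The groups overlapped for FOSB and ATF3 and did not for BATF3. Both G34W libraries lay below both WT libraries for 1 of the 9 genes, against 14.9% of all genes tested. They lay above both for 0, against 11.5%. Leaving out G34W replicate 1 gave 0.30 for FOSB, -0.27 for BATF3 and -0.12 for ATF3, and a median of 0.18 for the list.

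Set library by library, the medians of the lists differed between the G34W libraries, as did the median over all genes. The median log2 ratio to the mean of the WT libraries in G34W replicate 1 was -0.50 for the members, -0.55 for the 14 other targets, -0.38 for the Hippo regulators, -0.40 for the factors and -0.45 for AP-1, beside -0.17 over all genes tested. In G34W replicate 2 the same medians were 0.05, 0.10, 0.03, 0.12 and 0.18, beside 0.04. The members' median also differed between the WT libraries, at -0.19 in replicate 1 and 0.19 in replicate 2, beside -0.05 and 0.05 over all genes. All 10 members were below the WT mean in G34W replicate 1, where 63.6% of all genes were, and 5 of the 10 were below it in replicate 2, where 43.5% of all genes were. The library with low members is the one with the pluripotent stem cell sum of 53362, and its osteoblast or mesenchymal sum of 311422 was the lowest of the 5 libraries, with ALPL, THY1 and SPP1 at their highest and RUNX2, COL1A1, VIM and BGLAP at their lowest there. The part of either in the low member values was not tested.

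**Figure D4:**
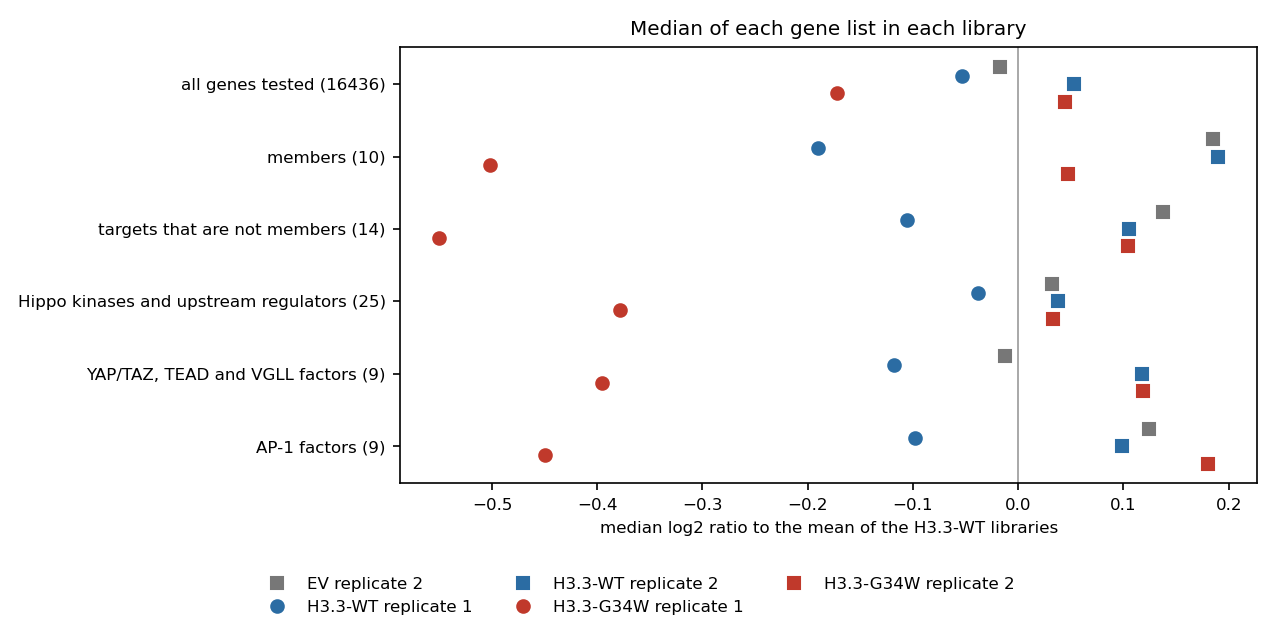
Median log2 ratio to the mean of the WT libraries (horizontal axis) for all genes tested and for each gene list, with the number of genes in brackets and a point for each library, the WT points mirroring each other by construction. Among the libraries of each list G34W replicate 1 lies lowest, for instance at -0.17 for all genes and at -0.55 for the targets that are not members.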

How the data were processed

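The authors estimated transcript abundance with kallisto on Ensembl GRCh38 models, imported it per gene with tximport and normalised it in DESeq2. The deposited values are this signal, normalised estimated counts that are neither whole numbers nor scaled by gene length. Depth per library is unknown, and no count model was run although the study's own test used one. Precision was judged from the spread between libraries. Groups were taken from the library titles.

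Values were transformed as log2(value + 1), which understates changes of low genes. Genes that reached a value of 10 in 2 or more of the 5 libraries entered 1 limma fit of 3 groups without covariates (limma 3.58.1, R 4.3.3), with a trend in the prior variance and p-values adjusted by Benjamini-Hochberg across 16436 genes, at a threshold of 0.05. Standard errors and intervals are the moderated ones. Lists were described by counts and medians. Members and lists were chosen with earlier results of these data known. Genes named are the members, of each pathway list any gene past the threshold and the 3 with the largest absolute log2 fold change between G34W and WT, and the most abundant gene of each marker list. Other genes were named after their values were seen, as markers at or near 0 or highest in 1 library, as genes not tested or as single calls. Gene positions and promoter windows are from RefSeq (GRCh38.p14), matched by identifier or symbol. Alternatives were a prior variance without a trend, pseudocounts of 0.1 and 5, no filter, a mean above 50, rescaling to a median log2 ratio of 0, a replicate block, and leaving out each library in turn. Figures were drawn with matplotlib 3.10.9.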

Additional observations from a re-analysis of the deposited data

Results flagged for a closer look

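EV replicate 1, which enters no comparison, was listed at 0 for 7 of the 10 members and stood above EV replicate 2 for the other 3. YAP1 had 146761 normalised estimated counts in EV replicate 1 and 5347 in EV replicate 2, TEAD1 had 79830 and 4517, and ANKRD1 had 29965 and 1465. The ratios were 27.4, 17.7 and 20.5. They are not corrected for the sum of all values, which was 157595150 in EV replicate 1 and 41985190 in EV replicate 2. Over all genes, 80.5% were listed at 0 in EV replicate 1, against 40.7% to 46.0% in the other libraries. YAP1 and TEAD1 lie on chromosome 11 and ANKRD1 on chromosome 10, and the 7 members listed at 0 lie on other chromosomes. Zeros over all genes were not counted by chromosome, so these positions describe the members only. The cause of the zeros and of the high values was not tested.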

How the results depend on the processing

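Under each alternative 0 members were called. Without a trend, with a pseudocount of 5, without the filter, with a mean above 50, rescaled or with the replicate block, 0 genes were called in limma in each comparison, with 377 to 791 at an unadjusted p under 0.05 for mutant against wild type, 231 to 1017 for G34W against EV and 106 to 917 for WT against EV. A pseudocount of 0.1 gave 1 gene in each comparison with EV (PPP1R11, named after its value was seen), and 0 between G34W and WT. With each library left out, counts ran from 0 to 117 for G34W against WT, from 1 to 58 for G34W against EV (58 without G34W replicate 2) and from 1 to 11 for WT against EV (11 without WT replicate 1). Counts of 1 or 2 against EV were PPP1R11, RPL3P4, MSANTD3-TMEFF1 or AP002748.5, also named after their values were seen.

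The median of the 22 target genes was -0.58 to 0.05 with each library left out, positive without G34W replicate 1, and -0.19 rescaled. The medians of the other lists ran over -0.38 to 0.033 for the Hippo regulators, -0.40 to 0.12 for the factors and -0.45 to 0.18 for AP-1. Signs of single genes also rested on single libraries. For G34W against WT, log2 fold changes that turned ran over YAP1 -0.29 to 0.26, WWTR1 -0.53 to 0.12, TEAD1 -0.40 to 0.21, CCN1 -0.11 to 0.50, CCN2 -0.39 to 0.12, AMOTL2 -0.58 to 0.0291, LATS2 -0.77 to 0.21, VGLL2 -1.79 to 0.24 and FOSB -1.15 to 0.32. For G34W against EV they ran over YAP1 -0.17 to 0.16, CCN1 -0.33 to 0.29 and LATS2 -0.79 to 0.20, and for WT against EV over YAP1 -0.26 to 0.28, CCN1 -0.50 to 0.0747, CCN2 -0.31 to 0.20, AMOTL2 -0.47 to 0.15 and LATS2 -0.15 to 0.12.

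Rescaling gave 0.0447, 0.0393 and -0.0054 for YAP1 in the same order of comparisons, and 0.0272 for CCN1 in G34W against EV. Deviations of the libraries that carry the same replicate number had a correlation of 0.067 across genes, over 2 pairs that share only that number. The replicate block adds a term for the replicate number, estimated from the G34W and WT libraries. It gave 0.21 for YAP1, 0.28 for CCN1 and 0.0187 for LATS2 in G34W against EV. In WT against EV the replicate block gave 0.0063 for WWTR1, 0.0866 for CCN1, 0.0049 for CCN2, 0.0901 for AMOTL2 and 0.30 for LATS2. The cause was not tested.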
